A study of Mus musculus with 42 samples.

Results

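The 37 RNAs encoded by the mouse mitochondrial genome were followed in brain through input RNA and ribosome footprints. They were chosen by symbol, as every row of the brain footprinting table whose gene symbol starts with mt-, which gave 37 of 50765 rows: 13 mRNAs, 2 rRNAs and 22 tRNAs. The series deals with adult mice that lack PCIF1, the methyltransferase that makes m6Am beside the cap of mRNAs. Knockout mice (KO) carry a Cas9 deletion of 89 bp in exon 15 and intron 16 of Pcif1, which takes out part of the catalytic site and ends the reading frame early, in a line founded in B6D2F1/J hybrid embryos and crossed to C57BL/6J. Brain had 4 groups of 3 libraries, namely footprints from adult Pcif1 KO mice, footprints from adult wild-type (WT) mice, and input RNA of KO and of WT lysates. The footprints are fragments that survived RNase I and passed a gel filtration column. A testes table, used at the end, came from m6Am-Exo-Seq, which takes capped RNA ends through an m6A antibody, and had 3 libraries each of immunoprecipitate (IP) and input from adult KO and adult heterozygous (HET) mice. The labels give brains from 3 mice of each genotype, and number no replicates.

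Mitochondrial DNA is transcribed from both strands into long precursors, and tRNAs that lie between the other genes are cut out to release the mRNAs and rRNAs. The mRNAs carry no cap like that of nuclear mRNAs and are translated by the mitochondrial ribosome, whose RNA is mt-Rnr1 in the small subunit and mt-Rnr2 in the large subunit. All 13 proteins are core subunits of the oxidative phosphorylation complexes, on which neurons rely for ATP. The values below are deposited signals, reads scaled by a factor for each library and not divided by gene length, so levels are compared between groups and not between genes.

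Brain libraries held between 13613498 and 17443749 estimated reads, except KO input replicate 2, which held 5528738. WT footprint replicate 2 stood apart from its group: across 12918 genes its log2 signals correlated at 0.907 and 0.923 with the other WT footprints, which correlated at 0.956 with each other. Its correlations with KO footprints, over 12392 genes, were 0.943 to 0.946, higher than those of WT replicate 1 (0.906 to 0.917) and of WT replicate 3 (0.922 to 0.931). Whether its label is right was not tested, and every KO against WT value of footprints below rests on that label. Ribosomal RNA other than mt-Rnr1 and mt-Rnr2 took 66.6 to 71.4% of the signal in KO footprints, 71.4 to 74.5% in WT footprints and 6.13 to 7.52% in inputs. It was counted as the genes of rRNA type together with AY036118 and Gm42418. Pcif1 itself had 254, 201 and 259 in KO inputs and 253, 318 and 388 in WT inputs; in footprints it had 354, 302 and 182 in KO and 242, 229 and 233 in WT. Its gene total cannot show a deletion of 89 bp, so these values check no label.

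Mitochondrial RNAs made up 22.0 to 25.9% of the signal in KO inputs and 22.7 to 26.7% in WT inputs, and most of that was tRNA. tRNAs took 19.6 to 21.6% of all signal in KO inputs and 20.4 to 24.3% in WT inputs. mRNAs took 0.413 to 0.662% in KO inputs and 0.454 to 0.560% in WT inputs. rRNAs took 1.98%, 3.68% and 2.05% in KO inputs, against 1.91%, 1.66% and 1.79% in WT inputs, and these ranges did not overlap. The rRNA difference of 0.788 percentage points gave p = 0.1 in a two-sided exact permutation test (n = 3 per group), which is the smallest p that 3 against 3 libraries allow, and KO input replicate 2 held the highest share. The tRNA and mRNA shares overlapped between genotypes (exact permutation p = 0.3 and p = 1). In footprints the whole mitochondrial share was 1.19 to 1.38% in KO and 0.732 to 1.52% in WT, where replicate 2 was the low library.

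The mRNAs of the electron transport chain had input signals that overlapped between genotypes. Among the complex IV subunits, which form cytochrome c oxidase, mt-Co1 had 17104, 26142 and 15235 in KO inputs and 20848, 19385 and 15476 in WT inputs. mt-Co3 had 11609, 16363 and 11111 in KO inputs and 16167, 14586 and 13326 in WT inputs, and mt-Co2 averaged 4953 ± 1224 and 5262 ± 878 (SD, n = 3 each). In all of them the KO range enclosed or overlapped the WT range, with KO replicate 2 the highest library. mt-Cytb, the only mitochondrially encoded subunit of complex III, had 2188, 3504 and 1943 in KO inputs and 2586, 2385 and 2091 in WT inputs.

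The same held for complex I, the NADH dehydrogenase, and for ATP synthase. mt-Nd1 averaged 2633 ± 849 in KO inputs and 2461 ± 367 in WT inputs (SD, n = 3 each). mt-Nd2 averaged 688 ± 249 and 551 ± 80.7, mt-Nd3 1716 ± 357 and 1771 ± 168, and mt-Nd4 1184 ± 406 and 1005 ± 98.9, KO before WT. mt-Nd5 averaged 1582 ± 464 in KO and 1428 ± 121 in WT. mt-Nd6, the one mRNA from the opposite strand, had 647, 606 and 649 in KO inputs and 799, 602 and 678 in WT inputs, and was the mRNA with the smallest spread among KO inputs. It lies opposite the end of mt-Nd5, and as strand use is not stated, reads of the pair cannot be told apart where they overlap. mt-Nd4l, which shares an mRNA with mt-Nd4, had the widest spread, at 55.9, 473 and 328 in KO and 193, 169.9 and 228 in WT. The ATP synthase subunits mt-Atp6 and mt-Atp8 lie on 1 shared mRNA with overlapping frames, so reads can be split between them. mt-Atp6 had 2074, 3585 and 1966 in KO inputs and 2650.4, 2084 and 1881 in WT inputs, and mt-Atp8 441, 826 and 399.9 in KO and 470.2, 389.7 and 317 in WT.

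None of the 37 members passed limma's test of KO against WT inputs (Benjamini-Hochberg adjusted p below 0.05), against 0.255% of the 15298 genes tested. All 37 passed the filter on low values, and none was called in any alternative fit. Of the 37, 12 had an unadjusted p below 0.05, all tRNAs, beside 1606 of the 15298 genes tested. The 13 mRNAs had log2 differences from -0.19 for mt-Co3 to 0.44 for mt-Atp8 with a median of 0.07, beside a median of 0.02 over all genes tested. Without KO input replicate 2, 12 of the 13 were below 0 and their median was -0.19. No mRNA had ranges that did not overlap. The rRNAs mt-Rnr1, at 14828, 25199 and 13615 in KO inputs and 12431, 13502 and 12079.6 in WT inputs, and mt-Rnr2, at 187171, 354380.0 and 193761 in KO and 184995, 160846 and 164521 in WT, were higher in each KO library than in any WT library. Their differences were 0.44 ± 0.22, adjusted p = 0.529 for mt-Rnr1 and 0.46 ± 0.25, adjusted p = 0.548 for mt-Rnr2 (log2, SE, limma), and 0.17 ± 0.08, adjusted p = 0.536 and 0.17 ± 0.10, adjusted p = 0.618 without KO replicate 2. In bulk tissue, fewer cells of a type and less RNA per cell cannot be told apart.

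**Figure D1:**
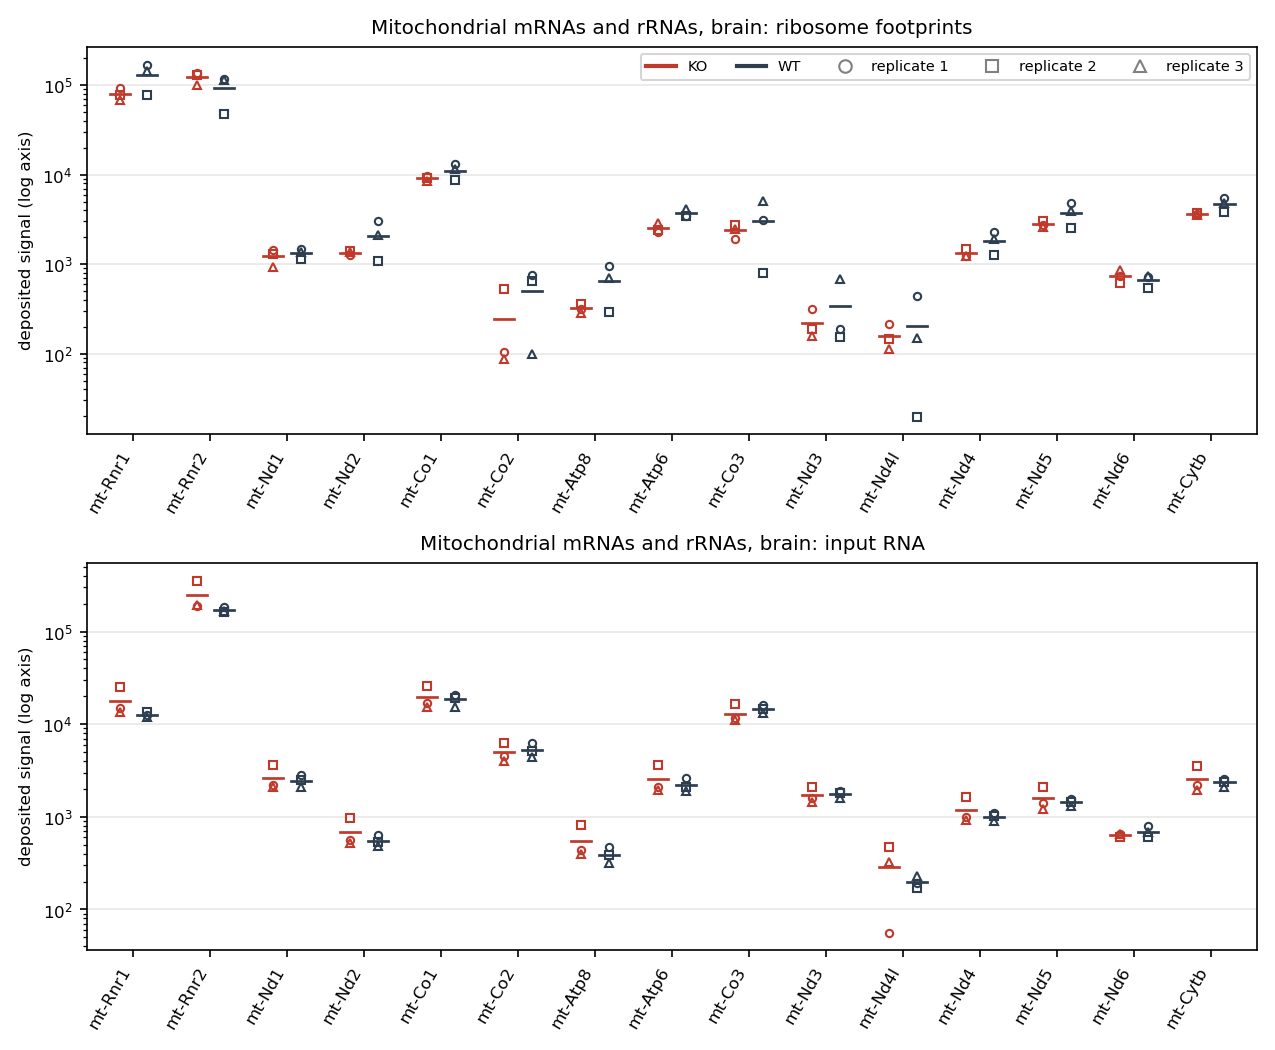
Deposited signal (log axis) of the 13 mitochondrial mRNAs and 2 rRNAs in brain footprints (top) and input RNA (bottom). Each open symbol is 1 library, KO left of WT, and bars are means of 3. KO input replicate 2 (square) is the highest KO input for all but mt-Nd6, and WT footprint replicate 2 is the lowest WT footprint for all but mt-Co2.

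Single tRNAs lay on both sides of WT in the KO inputs, none of them past the test. mt-Tl2, which reads leucine CUN codons, had 391334, 491608 and 400610.0 in KO inputs and 783329, 730152 and 541384 in WT inputs, and mt-Th, the histidine tRNA, had 416023, 192144 and 374767 in KO and 538561, 497395 and 458334 in WT. mt-Tg for glycine had 201325, 140878 and 194800.0 in KO and 241004, 250484 and 228105 in WT, and mt-Te for glutamate 86383, 89290.3 and 82562 in KO and 121065, 116965 and 103234 in WT. For these 4 every KO library was below every WT library. Their log2 differences were -0.67 ± 0.19, -0.68 ± 0.29, -0.44 ± 0.16 and -0.40 ± 0.10 (SE, n = 3 per group), and limma's adjusted p was 0.278 or more. mt-Th and mt-Tg were lowest in KO input replicate 2, and without it their differences were -0.33 ± 0.12, adjusted p = 0.442 and -0.28 ± 0.09, adjusted p = 0.419.

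The tRNAs that stood higher in KO included mt-Ts1, the serine UCN tRNA, with 8639, 15636 and 6504 in KO inputs and 4278, 4755 and 2806 in WT inputs. mt-Tf for phenylalanine had 27842, 60031 and 25637 in KO and 14419, 18766 and 15167 in WT, and mt-Tn for asparagine 20106, 37669 and 19521 in KO and 11047, 14099 and 9290.2 in WT. mt-Ty for tyrosine, with 42189, 48540.2 and 37380.5 in KO and 28349.8, 30584 and 25413 in WT, gave the smallest adjusted p of all members (0.60 ± 0.12, adjusted p = 0.191, log2, SE, limma). In these 4 each KO library was above every WT library, with log2 differences of 1.31 ± 0.34 for mt-Ts1, 1.13 ± 0.32 for mt-Tf and 1.12 ± 0.28 for mt-Tn. Without KO input replicate 2, mt-Tf was at 0.74 ± 0.13, adjusted p = 0.203. mt-Ta for alanine (0.55 ± 0.13), mt-Tp for proline (0.72 ± 0.22), mt-Tt for threonine (0.51 ± 0.19) and mt-Tc for cysteine (0.33 ± 0.13) were also above WT in every library.

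Ranges of KO and WT inputs thus did not overlap for 8 of 22 tRNAs on the higher side and 4 of 22 on the lower side. Over all 15298 genes tested the shares were 10.6% on the higher side and 7.84% on the lower side. The 8 tRNAs transcribed from the strand opposite to most genes had a median log2 difference of 0.58, with 7 of 8 above 0 and mt-Te the exception, and the other 14 a median of 0.25. Among the remaining tRNAs, mt-Tw for tryptophan was at 47798, 71070.2 and 28543 in KO and 23987, 31328 and 22145 in WT, which overlap, and mt-Tv for valine at 130036, 155223 and 143526 in KO and 105233, 136909 and 101869 in WT. The others, mt-Tl1, mt-Ti, mt-Tq, mt-Tm, mt-Td, mt-Tk, mt-Tr and mt-Ts2, had log2 differences between 0.01 and 0.43, and between -0.22 for mt-Ti and 0.26 for mt-Tm without KO input replicate 2. mt-Tw was at 0.85 ± 0.32, and at 0.53 ± 0.25, adjusted p = 0.53 without that library. Without KO input replicate 2 the tRNA differences ran from -0.77 for mt-Tl2 to 0.96 for mt-Ts1, so the extremes at both ends kept their direction.

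As shares of the tRNA signal, mt-Tl2 held 20.3 ± 1.85% in KO inputs and 28.9 ± 2.21% in WT inputs, and mt-Th 15.7 ± 6.14% in KO and 21.2 ± 1.58% in WT (SD, n = 3). Of the 22 tRNAs, 18 had a log2 difference above 0, beside 8134 of the 15298 genes tested, and 15 of 22 did without KO input replicate 2. mt-Ts1, the smallest contributor in both genotypes, held 0.480 ± 0.198% in KO and 0.165 ± 0.0244% in WT.

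**Figure D2:**
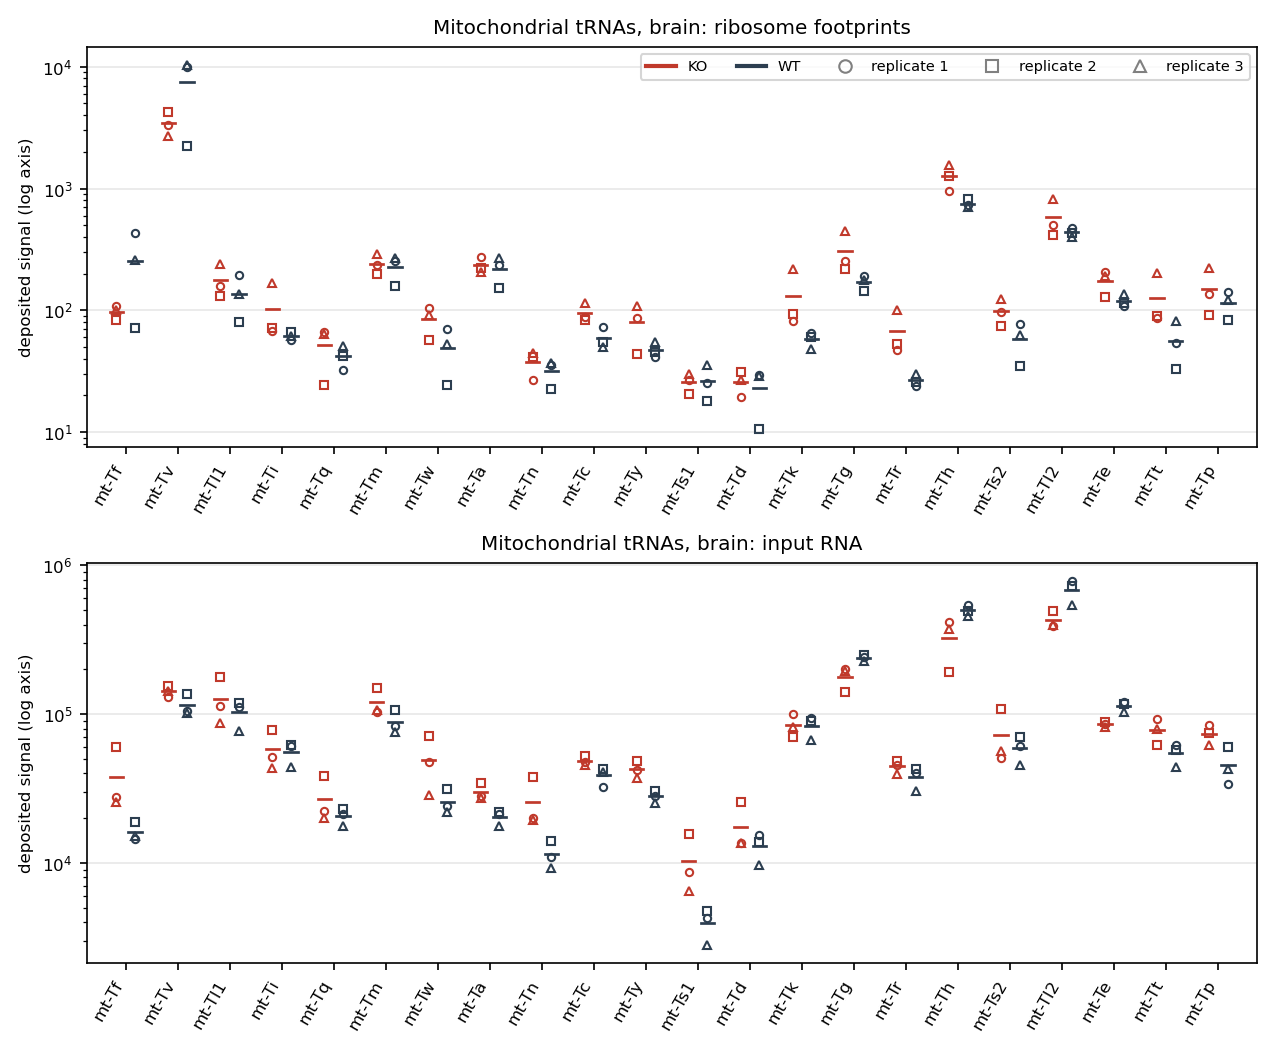
Deposited signal (log axis) of the 22 mitochondrial tRNAs in brain footprints (top) and input RNA (bottom), in gene order. Each open symbol is 1 library, KO left of WT, and bars are means of 3. In inputs mt-Th, mt-Tl2, mt-Tg and mt-Te are lower in every KO library, and in footprints mt-Tv has the highest mean in both genotypes.

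Footprints were then set against input within each genotype. All 22 tRNAs fell in footprints, with log2 differences of -9.58 to -5.40 in KO and -10.60 to -4.22 in WT. Lower calls made up 28.4% of the 16527 genes tested in KO and 29.1% in WT. mt-Tl2 averaged 579.7 ± 215 in KO footprints against 427851 ± 55410.0 in KO inputs, and 437 ± 37.4 in WT footprints against 684955 ± 127147 in WT inputs, so that 0.135% and 0.0638% of the input signal remained. Apart from mt-Tv, mt-Ta, mt-Tf, mt-Th and mt-Ts1, the tRNAs kept between 0.0638% and 0.275% in the 2 genotypes.

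mt-Tv kept the most signal of any tRNA in both genotypes. In the human mitochondrial ribosome this valine tRNA is built into the large subunit. Its footprint signal was 3326, 4272 and 2690.3 in KO and 9889, 2246 and 10282 in WT, which is 2.40% and 6.52% of the mean input. It made up 45.5 ± 11.3% of the tRNA signal in KO footprints against 6.79 ± 0.598% in KO inputs, and 66.4 ± 16.4% in WT footprints against 4.87 ± 0.612% in WT inputs. mt-Ta kept 0.785% in KO and 1.08% in WT, mt-Tf 0.258% in KO and 1.57% in WT, and mt-Th 0.385% in KO and 0.151% in WT. Next after mt-Tv came mt-Ta and mt-Th in KO, and mt-Tf and mt-Ta in WT. In gene order by RefSeq (GRCm38.p6), mt-Tf and mt-Tv lie on either side of mt-Rnr1.

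mt-Rnr1 rose in footprints and mt-Rnr2 fell. mt-Rnr1 had 92861, 77512 and 68553 in KO footprints and 169637, 78287 and 142880.0 in WT footprints. Against its inputs given above it was 4.59-fold higher in KO (2.20 ± 0.29, adjusted p = 7.02e-05, log2, SE, limma) and 9.78-fold higher in WT (3.29 ± 0.29, adjusted p = 2.91e-06). mt-Rnr2 had 137553, 130141 and 99428 in KO footprints and 118478, 47539 and 113119 in WT footprints, lower than input by limma in both KO (-0.95 ± 0.34, adjusted p = 0.0366) and WT (-0.98 ± 0.34, adjusted p = 0.0309). The mt-Rnr2 calls were near the threshold and were lost without several single libraries, among them KO input replicate 2 in KO (-0.65 ± 0.34, adjusted p = 0.146) and WT footprint replicate 2 in WT (-0.55 ± 0.25, adjusted p = 0.085). The part of footprint signal that comes from ribosomal RNA itself, not from translated mRNA, was not tested.

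The mRNAs differed widely in footprint against input, with mt-Nd2 at the top in both genotypes. mt-Nd2 had 1281, 1400.1 and 1366 in KO footprints and 3065, 1074 and 2126 in WT footprints, 196% and 379% of mean input (1.03 ± 0.33, adjusted p = 0.0232 in KO and 1.80 ± 0.33, adjusted p = 0.000821 in WT, limma). mt-Nd5 followed with 2711, 3069 and 2597 in KO and 4849, 2533 and 3914 in WT (0.85 ± 0.24, adjusted p = 0.0105 and 1.35 ± 0.24, adjusted p = 0.000571), and mt-Cytb with 3645, 3739 and 3499 in KO and 5420.3, 3796 and 4778 in WT (0.56 ± 0.20, adjusted p = 0.0372 and 0.98 ± 0.20, adjusted p = 0.00175). These 3 rose in both genotypes. The KO calls of mt-Nd2 and mt-Cytb were lost without KO input replicate 1 or 3 or KO footprint replicate 2 or 3, and that of mt-Cytb also without KO footprint replicate 1 or WT input replicate 2, with adjusted p up to 0.0858 and 0.149. In WT, mt-Atp6 (0.75 ± 0.22, adjusted p = 0.0123) and mt-Nd4 (0.83 ± 0.24, adjusted p = 0.0136) rose as well, calls lost without WT input replicate 3 for mt-Atp6 and without WT footprint replicate 1 for mt-Nd4. In KO they gave 0.03 ± 0.22, adjusted p = 0.908 and 0.20 ± 0.24, adjusted p = 0.515. Higher calls thus numbered 3 of 13 in KO, beside 24.0% of all genes tested, and 5 of 13 in WT, beside 25.2%.

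The mRNAs lower in footprints were the complex IV subunits with mt-Nd3 and mt-Nd1. mt-Co1 had 9751, 9176 and 8465 in KO footprints and 13147, 8617 and 11534 in WT footprints, 46.8% and 59.8% of mean input (-1.06 ± 0.21, adjusted p = 0.00152 and -0.75 ± 0.21, adjusted p = 0.0109, limma). mt-Nd3 kept 12.8% in KO and 19.3% in WT, and mt-Nd1 46.4% in KO and 53.8% in WT. mt-Co3 kept 18.3% and 20.4%, and mt-Co2 4.88% and 9.50%, KO before WT. With a nuclear copy added, as described below, mt-Co3 kept 36.9% and 34.4%, and mt-Co2 69.0% and 85.6%, above mt-Nd1 and mt-Co1. As separate rows all 5 were called lower by limma in both genotypes, with adjusted p of 0.0109 or less. This was 5 of 13 mRNAs, beside 28.4% of all genes tested called lower in KO and 29.1% in WT. mt-Nd6, mt-Nd4l and mt-Atp8 were not called in either genotype, at 0.21 ± 0.16, -0.43 ± 0.99 and -0.72 ± 0.39 in KO and -0.05 ± 0.16, -0.83 ± 0.99 and 0.58 ± 0.39 in WT.

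These directions hold relative to the deposited scale. The median log2 difference of all genes tested was -0.09 in both genotypes on that scale, and -0.93 in KO and -1.18 in WT with each library rescaled to the same total. On these same-total values mt-Cytb, mt-Atp6 and mt-Nd4 were below 0 in both genotypes. So were mt-Nd6 in KO and mt-Atp8 in WT, at -0.49 against 0.58 as deposited. mt-Nd2 and mt-Nd5 were above 0 but no longer called in either genotype. With the same nuclear protein-coding total the median was -0.31 in KO and -0.37 in WT. mt-Cytb, at 0.65 and 1.07 above those medians, then stayed above 0 in both. In WT mt-Atp6, mt-Nd4 and mt-Atp8 also stayed above 0, at 0.85, 0.93 and 0.68 above the median. In KO mt-Atp6, mt-Nd4 and mt-Nd6, at 0.13, 0.29 and 0.30 above it, were below 0. Each lay below 0 by less than its SE on the deposited scale (0.22, 0.24 and 0.16). For mt-Nd4 and mt-Nd6 the value was close to 0, so no direction is shown. Relative to the median of all genes, each of the 37 members had the same sign under 3 scalings, but this was nearly fixed in advance. Rescaling shifts all genes of a library almost alike, so the shared sign is no check of the scale.

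**Figure D3:**
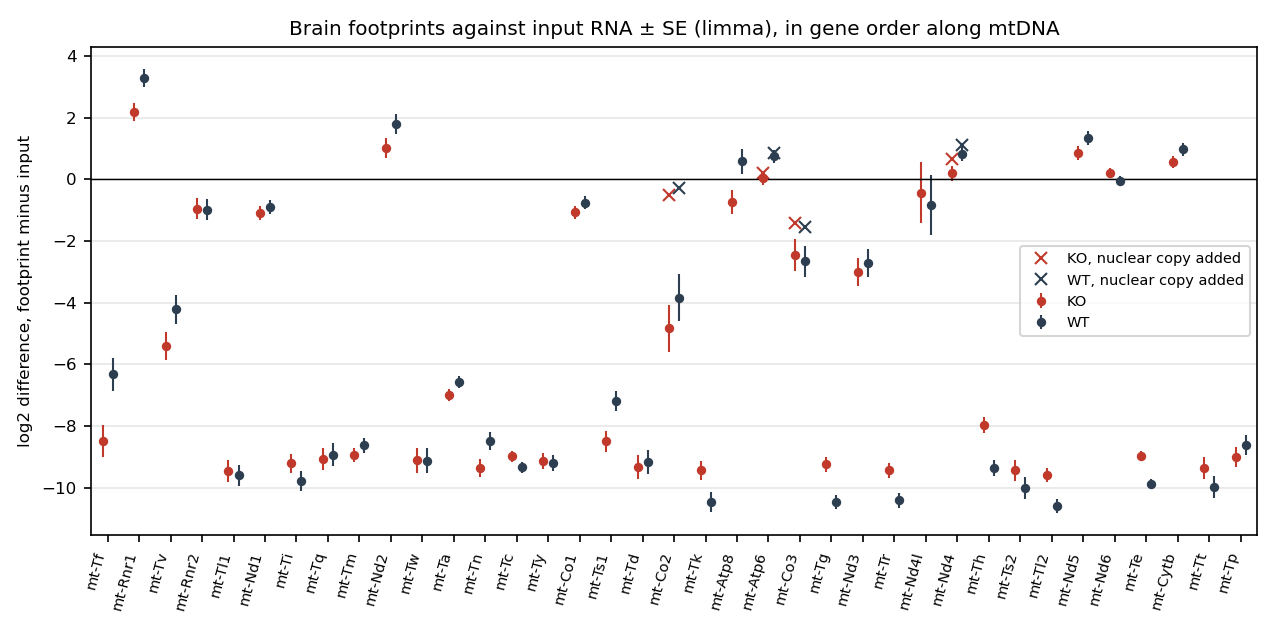
Log2 difference of footprint minus input (± SE, limma, n = 3 libraries per group) for the 37 members in gene order, KO left of WT. Crosses give 4 mRNAs after adding the signal of a nuclear pseudogene row. tRNAs lie between -10.60 and -4.22, mt-Rnr1 is the highest in both genotypes, and crosses move mt-Co2 and mt-Co3 up. Rescaling each library to the same total puts mt-Cytb, mt-Atp6 and mt-Nd4 below 0 in both genotypes, mt-Nd6 in KO and mt-Atp8 in WT. With the same nuclear protein-coding total mt-Cytb stays above 0 in both genotypes, and mt-Atp6, mt-Nd4 and mt-Atp8 in WT. mt-Atp6, mt-Nd4 and mt-Nd6 in KO are below 0 there too, but each by less than its SE, and mt-Nd4 and mt-Nd6 are close to 0.

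Some mRNAs share values with copies of mitochondrial DNA in the nuclear genome. In the testes table the pseudogene rows Gm28661, Gm28437, Gm10925 and Gm28439, all unprocessed pseudogenes on chromosome 1, held the same value as mt-Co2, mt-Co3, mt-Atp6 and mt-Nd4 in all 12 libraries. The last 3 were above 0 in all 12, but mt-Co2 in only 2, with a summed signal of 10.4. mt-Nd4l also had the values of Gm10222, Gm12917 and Gm20712, but was above 0 in only 3 libraries with a summed signal of 3.23, and was not summed. mt-Co3 alone had 1919, 2739.5 and 2498 in KO footprints and 3078, 792 and 5125 in WT footprints, while Gm28437 had 2590.2, 2295 and 2395 in KO and 1829, 4347 and 0 in WT. Their sum was 4509, 5035 and 4893 in KO and 4907, 5139 and 5125 in WT, with a coefficient of variation in WT of 2.57%, against 72.3% for mt-Co3 alone. In inputs Gm28437 was listed at 0 in every library.

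mt-Co2 was the most affected. Its own row had 104, 532 and 88.1 in KO footprints and 760.3, 641 and 98.8 in WT footprints, and Gm28661 had 3414, 3066 and 3094 in KO and 4990.3, 2352 and 4663 in WT. In inputs Gm28661 was listed at 0 except for 75.9 in KO replicate 3. With the nuclear rows added, footprint against input was -0.51 ± 0.23, adjusted p = 0.0879 in KO and -0.26 ± 0.23, adjusted p = 0.368 in WT for mt-Co2 (log2, SE, limma), so the call ended in both. For mt-Co3 it was -1.42 ± 0.14, adjusted p = 8.67e-06 in KO and -1.53 ± 0.14, adjusted p = 4.35e-06 in WT, still lower. mt-Nd4 became 0.67 ± 0.21, adjusted p = 0.0215 in KO, which passed, and 1.13 ± 0.21, adjusted p = 0.00097 in WT. mt-Atp6 became 0.22 ± 0.21, adjusted p = 0.409 in KO and 0.87 ± 0.21, adjusted p = 0.00518 in WT. Footprints are short fragments, and which row a shared read was given to cannot be told from these values. This sum was chosen after the values were seen.

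**Figure D4:**
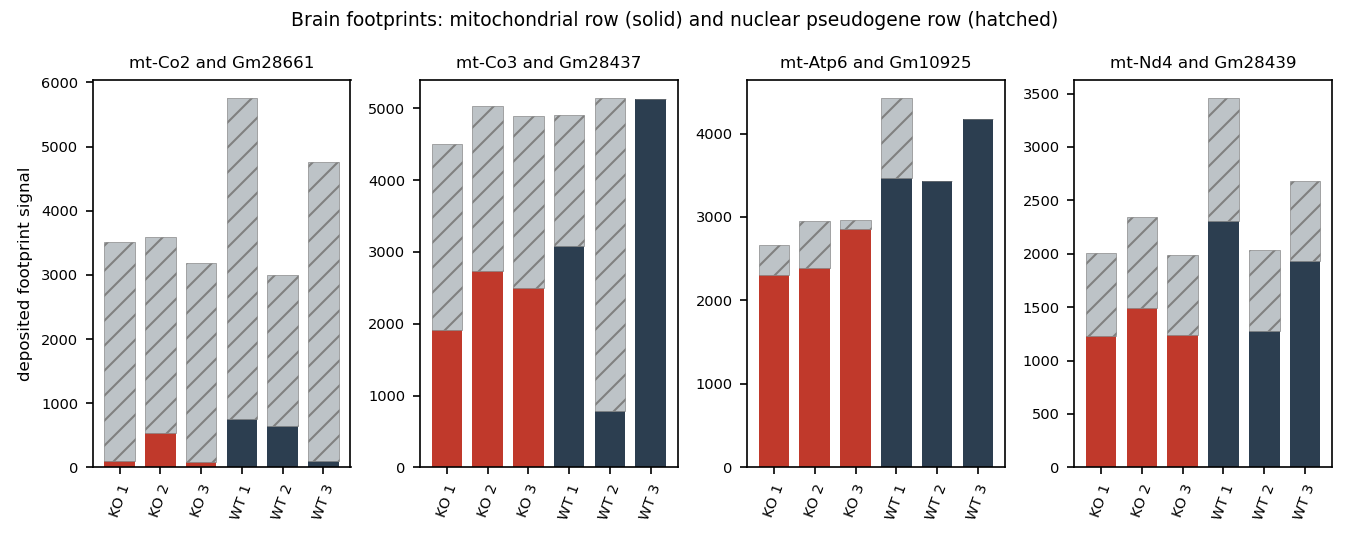
Brain footprint signal (linear axis) of 4 mitochondrial mRNAs (solid, KO red and WT dark blue) with the nuclear pseudogene row stacked on top (hatched), 1 bar per library. The mt-Co3 sums lie between 4509 and 5139 although the solid part runs from 792 to 5125, and most of the mt-Co2 sum is in the nuclear row in each library.

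Footprints were next compared between genotypes. The means of 10 of 13 mRNAs lay lower in KO on the log2 scale, yet no member passed limma's test with all libraries. mt-Atp6 came nearest, with 2304, 2391 and 2852 in KO footprints and 3466, 3428 and 4176 in WT footprints (-0.55 ± 0.14, adjusted p = 0.392, log2, SE, limma). It and mt-Cytb were the only mRNAs with every KO library below every WT library, 2 of 13 beside 8.74% of the 14377 genes tested. Among tRNAs, 7 of 22 had every KO library above every WT library, beside 8.46% of all genes. They were mt-Ti, mt-Tc, mt-Tk, mt-Tg, mt-Tr, mt-Th and mt-Tt, as for mt-Th with 959, 1255 and 1567 in KO footprints and 730.4, 814 and 707 in WT footprints (0.72 ± 0.20, adjusted p = 0.392). mt-Tr for arginine, with 47.6, 53.0 and 101 in KO and 24.1, 25.7 and 30.2 in WT, had the largest tRNA difference (1.23 ± 0.36, adjusted p = 0.405). Of the 37 members 0 were called by limma, beside 0.223% of all genes. An unadjusted p below 0.05 was found for 7 of the 37, beside 1546 of 14377 genes. The mRNA median was -0.36, the tRNA median 0.46 and that of all genes tested 0.01. Rescaling each library to the same total moved these to -0.11, 0.71 and 0.26.

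Leaving out WT footprint replicate 2 changed the count. Then 8 members were called lower in KO and none higher, beside 3.46% of 14120 genes called lower and 3.31% called higher, 956 genes in all against 32 with the library. The 8 were mt-Nd2 (-0.92 ± 0.17, adjusted p = 0.033), mt-Nd4 (-0.68 ± 0.14, adjusted p = 0.0424), mt-Nd5 (-0.65 ± 0.13, adjusted p = 0.0419), mt-Cytb (-0.49 ± 0.09, adjusted p = 0.037), mt-Atp8 (-1.36 ± 0.19, adjusted p = 0.0198), mt-Rnr1 (-0.98 ± 0.14, adjusted p = 0.0215), mt-Tv (-1.58 ± 0.19, adjusted p = 0.0172) and mt-Tf (-1.77 ± 0.27, adjusted p = 0.0231), all in log2 with SE and limma's adjusted p. In each of them the left-out library was the lowest WT footprint, as for mt-Atp8 with 319, 357 and 285 in KO footprints and 957, 292 and 701 in WT footprints, and for mt-Tf with 109, 82.7 and 101 in KO and 429, 71.1 and 259 in WT. Over all members it was the lowest WT footprint for 27 of 37, and it lay below the mean of the KO footprints for 34 of 37, the exceptions being mt-Co2, mt-Atp6 and mt-Cytb. With all libraries the remaining mRNAs gave -0.13 ± 0.20 for mt-Nd1, -0.36 ± 0.55 for mt-Nd3, 0.47 ± 0.99 for mt-Nd4l, 0.14 ± 0.19 for mt-Nd6, -0.26 ± 0.17 for mt-Co1, -1.10 ± 0.93 for mt-Co2 and 0.02 ± 0.61 for mt-Co3. Without the library these were -0.23 for mt-Nd1, -0.77 for mt-Nd3, -0.74 for mt-Nd4l, 0.00 for mt-Nd6, -0.43 for mt-Co1, -0.69 for mt-Co2 and -0.75 ± 0.25, adjusted p = 0.119 for mt-Co3, so mt-Nd4l and mt-Co3 changed sign. The mRNA median was then -0.68, with 1 of 13 above 0, and the tRNA median 0.38, with 16 of 22 above 0. mt-Rnr2 was at 0.49 ± 0.35 with all libraries and at 0.07 ± 0.14, adjusted p = 0.81 without the library. With the nuclear rows added and all libraries kept, mt-Co2 was at -0.34 ± 0.23, mt-Co3 at -0.07 ± 0.11, mt-Atp6 at -0.48 ± 0.14 and mt-Nd4 at -0.34 ± 0.20. With 2 WT libraries left, the spread of the group rests on that pair.

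**Figure D5:**
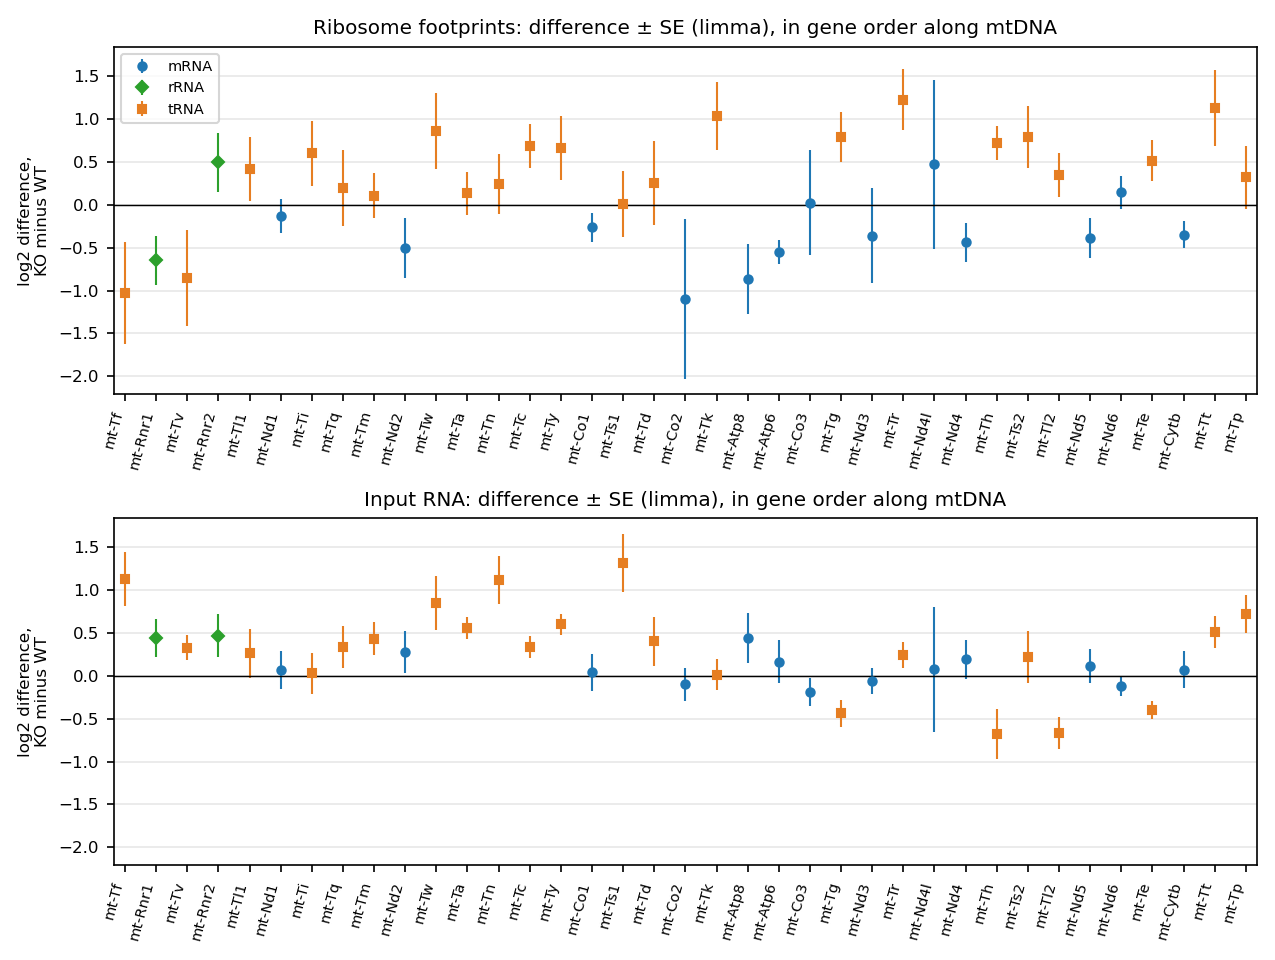
Log2 difference of KO minus WT (± SE, limma, n = 3 libraries per group) for the 37 members in gene order, in footprints (top) and inputs (bottom). In footprints most mRNAs lie below 0 and most tRNAs above it, and in inputs mt-Th, mt-Tl2, mt-Tg and mt-Te are the tRNAs below 0; no member passed the test. Rescaling to the same total raises the footprint median of all genes to 0.26.

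Translational efficiency, the change of footprint against input between genotypes, was tested as an interaction over all 12 libraries. No member passed limma's test, beside 0.188% of the 16527 genes. An unadjusted p below 0.05 was found for 11 of 37, beside 1616 of the 16527 genes. The mRNA median was -0.42 with 10 of 13 below 0, and the median of all genes tested was -0.00. Without KO input replicate 2 the mRNA median was -0.16 with 4 of 13 above 0, and without WT footprint replicate 2 it was -0.71 with 1 of 13 above 0. mt-Atp8 (-1.30 ± 0.55, adjusted p = 0.497) and mt-Atp6 (-0.72 ± 0.31, adjusted p = 0.497) were the mRNAs with an unadjusted p below 0.05, and mt-Atp6 was at -0.44 ± 0.22, adjusted p = 0.662 without KO input replicate 2, where no mRNA had one. Among tRNAs the lowest was mt-Tf (-2.16 ± 0.75, adjusted p = 0.468), and mt-Th (1.40 ± 0.37, adjusted p = 0.327), mt-Tg (1.23 ± 0.34, adjusted p = 0.358), mt-Tl2 (1.02 ± 0.32, adjusted p = 0.424) and mt-Te (0.91 ± 0.23, adjusted p = 0.29) were among those above 0. In the authors' deposited table, 4 members had an adjusted p below 0.05, with log2 values of -2.60 for mt-Tf, 1.28 for mt-Tg, 1.35 for mt-Th and 0.94 for mt-Te. That table called 126 of 16307 genes with a p-value, or 0.773%. tRNAs are not translated, so for them this ratio is only footprint signal against input signal. Without WT footprint replicate 2, 4 members were called lower, mt-Tf (-2.90 ± 0.46, adjusted p = 0.0109), mt-Tv (-1.91 ± 0.25, adjusted p = 0.00643), mt-Rnr1 (-1.42 ± 0.31, adjusted p = 0.0328) and mt-Atp8 (-1.80 ± 0.40, adjusted p = 0.0323), by limma, beside 2.66% of the 16424 genes called lower and 2.66% called higher.

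Nuclear genes for mitochondrial proteins were read beside the members. With 0.255%, 0.223% and 0.188% of all genes called in inputs, footprints and translational efficiency, a list of their size would hold hardly any call at that share. An unadjusted p below 0.05 was far more common among all genes tested. It was found for 1606 of 15298 in inputs, 1546 of 14377 in footprints and 1616 of 16527 in translational efficiency. Of the nuclear-encoded subunits tested, 0 of 36 for complex I, 0 of 9 for complex III, 0 of 11 for complex IV and 0 of 17 for ATP synthase passed limma's test in inputs, footprints or translational efficiency, with 4, 0, 1 and 2 at an unadjusted p below 0.05 in inputs, 8, 1, 0 and 4 in footprints and 5, 1, 0 and 4 in translational efficiency. Their input medians were 0.06, 0.07, 0.10 and 0.01 (log2). Atp5a1, the catalytic-core alpha subunit of ATP synthase, averaged 6829.8 ± 709 in KO inputs and 7139 ± 195 in WT inputs, and 7572 ± 1334 in KO footprints and 5511 ± 125 in WT footprints (SD, n = 3). Cox4i1 of complex IV averaged 1621 ± 44.0 in KO inputs and 1524 ± 73.3 in WT inputs, and Uqcrc1 of complex III 1247 ± 124 in KO and 1231 ± 69.8 in WT.

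For genes that make and use mitochondrial RNA the share of 0.255% of all genes called in inputs applies too. The counts of all genes at an unadjusted p below 0.05 also apply, 1606 of 15298 in inputs and 1546 of 14377 in footprints. None of 83 mitochondrial ribosomal proteins, 16 genes of mtDNA maintenance and transcription, 37 of RNA processing and decay, 33 translation factors and aminoacyl-tRNA synthetases and 18 biogenesis regulators passed in inputs, with 4, 2, 1, 1 and 1 at an unadjusted p below 0.05 and medians between -0.10 and 0.03. In footprints the counts at an unadjusted p below 0.05 were 5, 1, 5, 2 and 2. Tfam, which packages and transcribes mtDNA, averaged 157 ± 16.9 in KO inputs and 138 ± 10.00 in WT inputs. Lrpprc, which stabilises mitochondrial mRNAs, averaged 787 ± 70.9 in KO and 687 ± 32.9 in WT, and Slc25a4, the ADP/ATP carrier, 2429 ± 231 in KO and 2431 ± 105 in WT.

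Markers of cell types were read from the same libraries. The 8 neuron markers summed to 24144 to 25372 in KO inputs and 23664 to 25197 in WT inputs, and none was called. The 6 oligodendrocyte markers summed to 28804 to 30859 in KO inputs and 19441 to 20610 in WT inputs. Astrocyte markers summed to 13314 to 13729 in KO inputs and 10889 to 12415 in WT inputs, and microglia markers to 938 to 1068 in KO and 1189 to 1291 in WT, with no call in either list. In footprints the oligodendrocyte sum was 58658 to 65566 in KO and 33378 to 48871 in WT. The part of these shifts in the mitochondrial values was not tested. Germ cell markers summed to at most 4.60 in any brain library, with at least 2 of 4 genes at 0 in each group, and those of skeletal muscle and heart to at most 85.3.

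In testes, 35 of the 37 members had a row, and mt-Rnr1 and mt-Tf had none. Mitochondrial signal was low there: in all libraries but 1, 12 to 20 members were above 0, whereas HET IP replicate 1 had 34. The summed tRNA signal of that library was 258, against 47.8 to 77.8 in KO IP libraries and 13.7 and 25.0 in the other HET IP libraries. Only mt-Atp6, mt-Nd4, mt-Co3 and mt-Nd1 passed the filter in inputs. mt-Atp6 had 389, 316 and 333 in KO inputs and 246, 188 and 234 in HET inputs, and mt-Nd4 127, 116 and 128 in KO and 103, 53.6 and 83.6 in HET. Both passed limma in KO against HET, 2 of 4 beside 3.32% of 11278 genes called higher, and both rows hold exactly the values of their nuclear pseudogene rows, so each number can be that of either gene. The mt-Nd4 call was lost without any 1 of the 3 KO inputs or of HET inputs 2 and 3, and both calls when the spread was taken from all 12 libraries. mt-Co3 had 24.8, 26.2 and 20.5 in KO inputs and 16.6, 13.9 and 9.56 in HET inputs. It had the largest log2 difference of the 4 (0.82) but was not called, and its row also holds the values of its nuclear pseudogene row. mt-Nd1 had 14.2, 17.2 and 5.73 in KO inputs and 15.8, 2.77 and 17.5 in HET inputs, which overlap.

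In the IP, mt-Tw, the tryptophan tRNA, had 56.9, 37.4 and 37.8 in KO IP and 8.86, 8.25 and 5.73 in KO inputs, and 17.9, 9.14 and 17.0 in HET IP and 7.91, 5.54 and 3.98 in HET inputs. All its inputs were below the filter of 10, so it was tested only because its IP values were higher, and its IP against input is a description with no test. Of the 4 mRNAs that passed the filter in inputs, higher IP than input was called for mt-Atp6 and mt-Nd4 in KO, 2 of 4 beside 21.2% of 12387 genes, and for mt-Nd4 in HET, 1 of 4 beside 14.7%. The HET call was lost without HET input replicate 2 or 3 and without HET IP replicate 1 (0.49 ± 0.24, adjusted p = 0.141). For the same 4 mRNAs the difference between KO and HET was called for 0 by limma, beside 9.97% of genes, and for 0 by edgeR. The authors' own deposited adjusted p for this difference was 0.0495 for mt-Atp6 (log2 0.71), just below 0.05. It was 0.141 for mt-Nd4 and 0.797 for mt-Co3, and mt-Nd1 had none. Of the 4 mRNAs, 1 had an unadjusted p below 0.05 by limma, beside 3289 of 12387 genes. Without HET IP replicate 1 mt-Atp6 was called by limma (0.85 ± 0.25, adjusted p = 0.0333). This was 1 of 4 mRNAs, beside 717 genes called higher and 1012 called lower of 12228. Its row holds the values of Gm10925, so the call can be that of either gene.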

How the data were processed

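Brain and testes each had 1 deposited table, whose per-library values are signal: estimated reads per gene after scaling each library. Tools listed in the submitters' processing notes, with no role, were DESeq2 1.25.10, DESeq, Salmon 0.12.0, R 3.6.2 and STAR. The sources used here do not name a build, annotation or strand setting. The deposited tables also hold a log2 fold and adjusted p-value per gene, which are the authors' own. Of 42 labelled samples, the 24 libraries in 8 groups of both tables were used and 18 tissue RNA-seq libraries were not analysed here. In brain 7.74 to 15.6% of values came out as whole reads (tolerance 0.01), so no count model was run; in testes 100% were, and edgeR 4.0.16 was run on those recovered counts as an alternative to the deposited scale.

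Genes reaching a signal of 10 in 3 or more of the fitted libraries were tested with limma 3.58.1 (R 4.3.3, trend) on log2(signal + 1), with Benjamini-Hochberg adjustment over all genes at 0.05. Fold changes on that scale understate low genes. KO against control used the 6 libraries concerned; footprint or IP against input, and its difference between genotypes, used all 12 of the tissue. Shares were tested by exact permutation. The fits were also run on simulated data with 1 spread for all genes and no outlying library. The real libraries differ in both, so that run is no check of the comparisons above. Libraries were numbered in accession order. A p-value reflects only how these samples vary. The members, gene lists and tests were chosen with earlier results of these data known. By rule, all 13 mRNAs and 2 rRNAs are named, tRNAs that reach the filter, and per nuclear list up to 3 called genes or, with none called, up to 2 with the highest mean input signal, some of which are given. RefSeq gene order (GRCm38.p6) matched 37 of 37 symbols, with no coordinates used. Alternatives were a pseudocount of 5, no filter, 2 rescalings, the spread from all 12 libraries, each library left out, and nuclear copies added to 4 mRNAs, the last chosen after seeing the data. Shares were also taken of protein-coding genes and of all genes except rRNA, where rRNA included AY036118 and Gm42418 but not mt-Rnr1 and mt-Rnr2. The test result of 1 cell type marker list is not reported here.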

Additional observations from a re-analysis of the deposited data

Results flagged for a closer look

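In the authors' deposited table the change between genotypes itself passed the test for 4 tRNAs in footprint against input, with log2 values of -2.60 for mt-Tf, 1.28 for mt-Tg, 1.35 for mt-Th and 0.94 for mt-Te. The limma interaction gave differences of -2.16, 1.23, 1.40 and 0.91 for the same tRNAs, with adjusted p of 0.468, 0.358, 0.327 and 0.29. Direction was the same in all 4, but both sets of values come from the same 12 libraries, so this is no independent support. The limma difference of mt-Tf was -2.90 without WT footprint replicate 2 and -1.77 without KO input replicate 2.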

How the results depend on the processing

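No paired analysis was possible because the labels carry no replicate numbers. No member was called in KO against WT inputs under any of the alternatives run. In KO against WT footprints the member count of 0 became 1 (mt-Tr) with the spread from all 12 libraries, and 0 to 8 with 1 library left out; for translational efficiency it was 0 to 4, both highest without WT footprint replicate 2. mt-Te was called without KO footprint replicate 2. The count over all genes of 32 in footprints became 21 with rescaling to the same total, 143 with the spread from all 12 libraries and 0 to 956 with 1 library left out, 0 without KO footprint replicate 1. It was 7 to 24 for inputs (39 with all, 7 without KO input replicate 3) and 15 to 874 for translational efficiency (31 with all). Rescaling to the same total turned footprint against input in KO to -0.79 for mt-Atp6, -0.63 for mt-Nd4, -0.61 for mt-Nd6 and -0.27 for mt-Cytb. In WT it became -0.32 for mt-Atp6, -0.24 for mt-Nd4, -0.10 for mt-Cytb and -0.49 for mt-Atp8. The median of all genes moved by that scaling. With the same nuclear protein-coding total mt-Cytb stayed above 0 in both genotypes, and mt-Atp6, mt-Nd4 and mt-Atp8 in WT. mt-Atp6, mt-Nd4 and mt-Nd6 in KO did not, but each lay below 0 by less than its SE, with mt-Nd4 and mt-Nd6 close to 0. In testes the input count of 2 became 0 with the spread from all 12 libraries and 1 to 2 with 1 library left out. IP against input in HET, 2 members with mt-Tw counted, became 0 with no filter, 1 with the same total and 0 with the same nuclear protein-coding total. That count was 0 to 2 with 1 library left out. mt-Tw passed the filter only through its IP values, so its part in these counts is no test. The difference between KO and HET, 0 members, became 0 to 1 with 1 library left out. The causes were not tested, and a library left out also means fewer samples. Ratios of KO to WT in the mRNA and tRNA shares moved by less than the spread between libraries under the other denominators and leave-outs. KO input replicate 2, with 5528738 estimated reads, was the shallowest brain library.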
